A study of Homo sapiens with 4 samples.

Results

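The promoters of noncoding RNA genes and pseudogenes were examined in an ATAC-seq experiment on MCF10A, a human mammary epithelial line that is immortal but does not form tumours. A region belonged to this set when the authors' table annotated it as a promoter at a transcription start site (TSS), gave its nearest gene a type other than protein-coding, and placed it in the regions common to both groups or in those specific to the control. The rule selected 1083 of 58127 regions, or of 9614 promoter regions of all kinds. The common set held 723 of them (596 typed ncRNA, 115 pseudo, 7 snRNA and 5 snoRNA), and the control-specific set held 360 (309, 46, 1 and 4). Another 42 noncoding promoters specific to the knockdown and 13 promoters with no gene type fell outside the rule.

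The study compared cells with a short hairpin directed at SNHG8d (shG8d, SNHG8d knockdown), a product of SNHG8, which hosts a small nucleolar RNA, with cells carrying a control hairpin (shNC), with 2 libraries in each group, lettered A and B. No treatment, time point or clone is named for either group, and no label says that libraries came from separate cultures, so errors measure only how these libraries vary, and that variation may be technical. ATAC-seq counts DNA fragments released by a transposase that cuts open chromatin.

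Noncoding genes have promoters of the same general kind as protein-coding genes. Long noncoding RNAs (lncRNAs), miRNA precursors and most host genes of small nucleolar RNAs are made by RNA polymerase II, often from start sites shared with a coding gene that runs the other way. RNA polymerase III makes several small structural RNAs, such as the U6 spliceosomal RNA and the RNA parts of RNase P, RNase MRP and the vault particle. Processed pseudogenes are copies of a messenger RNA and usually lack the parent's promoter, whereas duplicated pseudogenes often carry a copy of it, so reads from near-identical copies cannot be assigned with certainty.

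The identity of the libraries had to be settled from the values. Each value, raised from log10, was a whole multiple of what 1 read is worth in that library, for 100% of values within 0.05 reads, and the same 4 worths recurred in every set of regions under exchanged group labels. A pair of libraries in which 1 read was worth 0.842 (A) and 0.807 (B) normalized counts, called the deeper pair here, was labelled shG8d in the common set and shNC in the control-specific set. The shallower pair (1.21 and 1.17) carried the opposite labels. Differences are therefore given as deeper minus shallower, on the scale of log2(normalized count + 1), and the effect of the knockdown is given no sign. The libraries held 8124488 and 8111839 reads in regions (deeper A and B) and 4457248 and 4344212 (shallower A and B), and 3 reads, the upper limit for a region with no reads, were worth between 2.42 and 3.62 normalized counts. Of the markers of MCF10A's lineage, 5 of 6 basal and 4 of 5 general epithelial genes had a promoter region in the table. Their summed signal was 1149.6 and 989 normalized counts in the deeper and 696 and 662 in the shallower pair for the basal genes, and 502 and 564 against 563 and 499 for the epithelial genes. The part of this difference at basal genes in the results below was not tested. Only PDGFRA of 11 markers of other cell types had one, with 36.2 and 46.0 normalized counts in the deeper and 32.6 and 19.9 in the shallower pair.

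The promoters that carry the results below are shown first. These are RefSeq windows (build GRCh38.p14, 250 bases before to 50 after the annotated start, 5′ to 3′ on the gene's strand). They were chosen because they belong to the targeted gene, SNHG8, to 3 genes with more signal in the deeper pair (DANCR, LINC00471 and TP53TG1) and to 3 with less (CYTOR, MIR205HG and NAGPA-AS1), each with a single window in the table. Capitals mark matches on either strand to TGANTCA (AP-1), TGACGTCA (CRE), GGGCGG (the GC box), CCGGAAGT (ETS), CCAAT (NF-Y) and GCGCATGC (NRF1).
SNHG8, chr4:118278512-118278811, plus strand: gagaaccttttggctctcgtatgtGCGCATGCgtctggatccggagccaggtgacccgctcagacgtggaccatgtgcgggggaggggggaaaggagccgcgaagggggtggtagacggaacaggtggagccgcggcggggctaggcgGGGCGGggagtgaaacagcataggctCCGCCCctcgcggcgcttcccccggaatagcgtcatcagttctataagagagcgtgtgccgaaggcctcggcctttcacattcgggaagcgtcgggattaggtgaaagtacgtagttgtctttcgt
DANCR, chr4:52712144-52712443, plus strand: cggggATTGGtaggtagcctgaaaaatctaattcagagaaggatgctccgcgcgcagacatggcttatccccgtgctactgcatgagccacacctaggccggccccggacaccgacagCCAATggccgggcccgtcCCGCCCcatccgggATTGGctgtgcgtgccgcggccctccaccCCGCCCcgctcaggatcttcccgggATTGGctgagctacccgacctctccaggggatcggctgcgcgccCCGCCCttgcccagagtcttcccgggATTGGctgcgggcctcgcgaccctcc
LINC00471, chr2:231514328-231514627, minus strand: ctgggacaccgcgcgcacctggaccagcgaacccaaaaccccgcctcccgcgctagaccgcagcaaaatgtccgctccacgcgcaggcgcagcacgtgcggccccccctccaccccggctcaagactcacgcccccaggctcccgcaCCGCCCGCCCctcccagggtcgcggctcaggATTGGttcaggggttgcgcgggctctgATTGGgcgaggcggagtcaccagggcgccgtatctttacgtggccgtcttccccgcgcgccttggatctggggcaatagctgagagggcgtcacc
TP53TG1, chr7:87345443-87345742, minus strand: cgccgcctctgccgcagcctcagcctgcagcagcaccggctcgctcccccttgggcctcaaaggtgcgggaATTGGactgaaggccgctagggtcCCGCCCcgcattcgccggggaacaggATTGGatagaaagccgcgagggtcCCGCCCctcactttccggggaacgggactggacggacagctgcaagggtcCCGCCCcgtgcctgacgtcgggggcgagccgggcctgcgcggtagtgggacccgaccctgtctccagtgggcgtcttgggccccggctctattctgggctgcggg
CYTOR, chr2:87455177-87455476, plus strand: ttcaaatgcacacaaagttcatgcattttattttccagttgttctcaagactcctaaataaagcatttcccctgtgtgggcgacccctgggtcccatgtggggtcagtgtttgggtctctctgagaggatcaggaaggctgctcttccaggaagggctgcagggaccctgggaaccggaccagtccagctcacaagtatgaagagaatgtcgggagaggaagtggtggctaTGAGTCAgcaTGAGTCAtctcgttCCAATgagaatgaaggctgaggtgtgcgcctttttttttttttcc
MIR205HG, chr1:209428570-209428869, plus strand: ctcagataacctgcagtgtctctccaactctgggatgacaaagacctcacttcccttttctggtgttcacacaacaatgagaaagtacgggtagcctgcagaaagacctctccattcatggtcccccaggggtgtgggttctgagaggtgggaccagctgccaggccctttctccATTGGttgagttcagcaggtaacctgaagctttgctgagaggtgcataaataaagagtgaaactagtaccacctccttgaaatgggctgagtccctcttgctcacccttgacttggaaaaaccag
NAGPA-AS1, chr16:5033452-5033751, plus strand: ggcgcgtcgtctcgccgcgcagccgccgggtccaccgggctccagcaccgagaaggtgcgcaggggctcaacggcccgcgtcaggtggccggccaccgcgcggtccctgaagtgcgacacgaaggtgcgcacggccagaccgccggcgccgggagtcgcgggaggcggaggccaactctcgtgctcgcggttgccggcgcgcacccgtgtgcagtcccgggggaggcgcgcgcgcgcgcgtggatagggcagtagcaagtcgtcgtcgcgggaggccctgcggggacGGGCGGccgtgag
The SNHG8 window held GC boxes and an NRF1 match and had a GC content of 62.3%. DANCR, LINC00471 and TP53TG1 held GC boxes and CCAAT boxes at 67.7%, 70.3% and 70.7% GC. CYTOR, at 49.7% GC with 5 CG dinucleotides, held AP-1 matches and a CCAAT box, and MIR205HG, at 50.3% GC, held 1 CG dinucleotide and a CCAAT box. NAGPA-AS1, also with less signal in the deeper pair, had 77.0% GC and 52 CG dinucleotides.

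Some miRNA genes among the members share a seed (bases 2 to 8, in capitals), the part of a miRNA that pairs with its targets, and these are printed so that their regions can be compared below. The mature sequences are from RefSeq on GRCh38.p14. In all, 101 of 110 miRNA symbols had a mature sequence there.
hsa-miR-3180-3p from MIR3180-2, chr16:16309936-16309957, plus strand: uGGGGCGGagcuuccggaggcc
hsa-miR-3180 from MIR3180-4, chr16:15154949-15154967, minus strand: uGGGGCGGagcuuccggag
hsa-miR-6511a-5p from MIR6511A1, chr16:14925941-14925963, plus strand: cAGGCAGAaguggggcugacagg
hsa-miR-6511a-3p from MIR6511A1, chr16:14925980-14926001, plus strand: cCUCACCAucccuucugccugc
hsa-miR-6511b-3p from MIR6511B1, chr16:2106679-2106701, minus strand: cCUCACCAccccuucugccugca
hsa-miR-663a from MIR663A, chr20:26208243-26208264, minus strand: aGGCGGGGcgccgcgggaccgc
hsa-miR-1908-5p from MIR1908, chr11:61815209-61815229, minus strand: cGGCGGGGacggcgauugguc
The copies of MIR3180 share the seed GGGGCGG, MIR6511A and MIR6511B copies share CUCACCA in their 3p arms, and MIR663A and MIR1908 share GGCGGGG.

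Regions lay close to annotated starts, since the rule took only regions annotated as promoters at a TSS. The median distance to the TSS was -57 bases, with a range of -1000 to 845. Of the 1083 regions, 727 lay upstream of the start and 542 within 100 bases of it. They named 1046 symbols, of which 15 had a region in each set, MIR100HG and MIR193BHG (hosts of miRNAs) among them. At 205 regions (18.9%) the transcript overlapped by the promoter annotation was a coding mRNA. The noncoding gene there shares its region with a coding promoter, and the signal cannot be divided between them. Current RefSeq matched 1078 of the regions to a gene and now lists 9 as protein-coding, TUG1 among them.

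In the common set, noncoding promoters differed in both directions, with a median near 0 under the deposited scaling, which also puts the median of all regions near 0 (-0.015). With all libraries set to equal totals the members' median was -0.34, so the median does not show equal openness. Region widths were not used, so levels of different regions are not per length. The median signal was 101 and 107 normalized counts in the deeper libraries A and B, and 106 and 98.4 in the shallower, with a median log2 difference of 0.004 (quartiles -0.39 and 0.45). The same median was 0.07 over protein-coding promoters and -0.12 over all common regions. limma's moderated test with Benjamini-Hochberg adjustment over all regions called 126 of the 723 higher in the deeper pair (17.4%) and 93 lower (12.9%). The share called was 10.7% higher and 15.0% lower over all common regions, and 20.2% and 11.5% over common protein-coding promoters, so the noncoding shares lay near those of coding promoters. The regions of the table, and their sets, were taken from these same libraries, so counts and differences are a description and no p-value of a member is given. Library values did not overlap between the pairs, deeper above shallower, at 256 members (35.4%), and deeper below at 246 (34.0%), and they overlapped at 221. The shares were 27.1% and 40.0% over all common regions and 40.4% and 29.6% over common protein-coding promoters.

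In the control-specific set the signal was lower and leaned to the deeper pair, which the choice of that set fixes. The medians were 47.5 and 46.8 normalized counts in the deeper and 41.1 and 33.4 in the shallower libraries, with a median log2 difference of 0.37 (0.51 over the set's protein-coding promoters and 0.24 over all its regions). The test called 72 of 360 higher and 5 lower (1.39%). The background was 13.2% and 0.979% over all control-specific regions, and 31.1% and 0.862% over the set's protein-coding promoters. Nothing is read from these counts, since membership used the contrast.

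These counts rest on the scaling and on single libraries. With all libraries set to equal totals, the median difference of all regions moved by -0.35. The calls then became 51 higher and 237 lower in the common set, and the share of calls that were higher went from 57.5% to 17.7%. In the control-specific set they became 33 and 25, with that share going from 93.5% to 56.9%. Over all 33913 common regions the calls went from 3634 higher and 5082 lower to 1359 and 12414. Over all 21459 control-specific regions they went from 2842 and 210 to 1220 and 1357. The move toward lower calls was thus not particular to the members. Without deeper library A, 55 common members were higher and 34 lower, and without deeper B, 52 and 52. The control-specific counts were 21 and 0 without deeper A, 19 and 1 without deeper B, and 117 and 14 without shallower A.

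**Figure D1:**
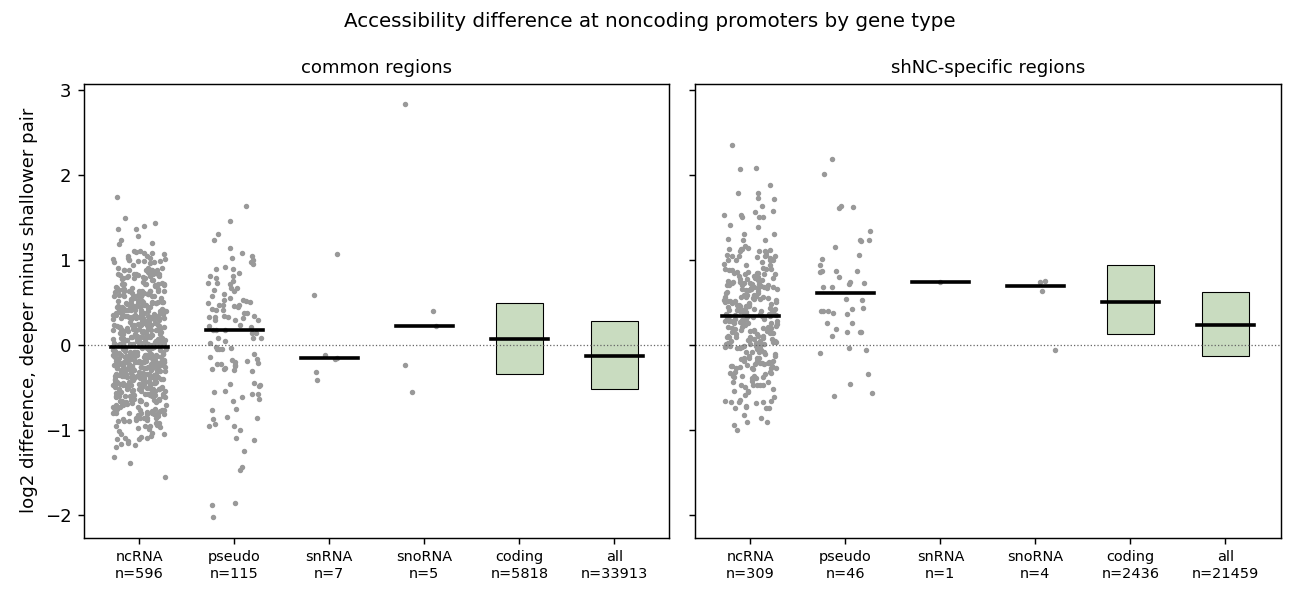
Log2 difference (deeper minus shallower pair) of each noncoding promoter, by gene type and set of regions. Grey points are regions, black lines medians, and green boxes the quartiles of protein-coding promoters and of all regions; the common noncoding medians sit near 0 for ncRNA genes and at 0.17 for pseudogenes.

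By gene type, common ncRNA promoters had a median log2 difference of -0.03, with 98 called higher (16.4%) and 75 lower (12.6%) of 596. Common pseudogene promoters had a median of 0.17, with 25 higher (21.7%) and 18 lower (15.7%) of 115. The shares were 10.7% and 15.0% over all common regions, and 20.2% and 11.5% over common protein-coding promoters. Without deeper A these pseudogene counts were 14 and 10, without deeper B 11 and 14, and with equal totals 13 and 34, so which direction had more calls turned over with the library left out and with the scaling. Among control-specific members, 16 of 46 pseudogene promoters were called higher (34.8%) and none lower, near the 31.1% of the set's protein-coding promoters, in a set chosen by the same contrast. That count was 6 without deeper A, 7 without deeper B and 7 with equal totals.

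**Figure D2:**
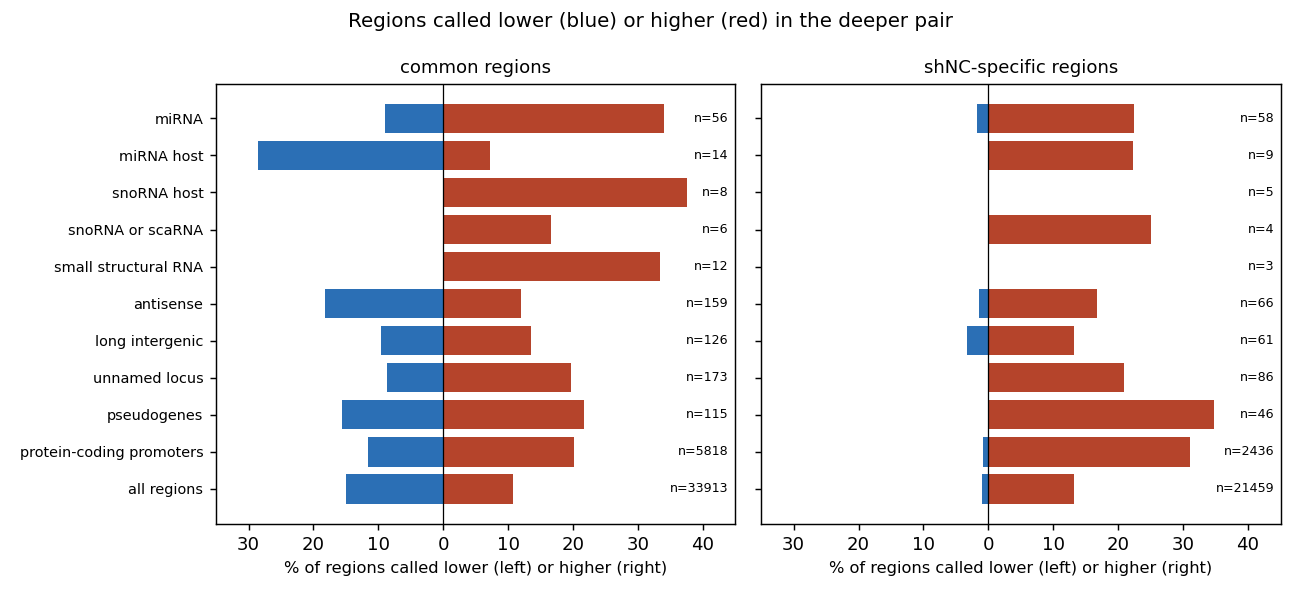
Percent of regions called higher (red, right) or lower (blue, left) in the deeper pair by family of noncoding gene, beside protein-coding promoters and all regions of the same set; n is the number of regions. In the common set miRNA genes have 19 of 56 called higher and miRNA host genes 4 of 14 called lower. All common regions have 10.7% called higher and 15.0% lower.

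SNHG8, the gene whose form the hairpin targets, had a common promoter region at -103 bases from its start on chromosome 4. It held 109 and 98.5 normalized counts in the deeper and 94.2 and 69.1 in the shallower pair. The pairs did not overlap, the log2 difference was 0.36 (SE 0.23) and the region was not called, except as higher without shallower A. The assay reads the promoter and not the RNA, so it does not check the knockdown.

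SNHG8 is 1 of 8 common host genes of small nucleolar RNAs, the guides of ribosomal RNA modification, which sit in their introns. Of the 8, 3 were called higher (37.5%) and none lower. The shares were 10.7% and 15.0% over all common regions, and 20.2% and 11.5% over common protein-coding promoters. The median difference of the 8 was 0.28 (-0.07 with equal totals). DANCR, a host gene also known for keeping progenitor cells undifferentiated, had the largest difference. Its region, 10 bases downstream of the start on chromosome 4, held 234 and 240 normalized counts in the deeper and 117 and 64.4 in the shallower pair, a log2 difference of 1.44 (SE 0.23). SNHG10 (275, 268 against 166, 194) and SNHG21 (95.9, 112 against 64.0, 66.8) were the other regions called. Without either deeper library, and with equal totals, only DANCR was called higher, and with equal totals 2 of the 8 were called lower. SNHG25, SNHG15 and SNHG12 lay at -0.59, -0.26 and -0.04, and none of them was called. No control-specific host gene was called, and SNHG7 (70.7 and 75.9 against 54.4 and 36.3) had the largest difference at 0.71 and was called without shallower A.

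SNORA109, an H/ACA small nucleolar RNA gene on chromosome X, had the largest difference of all 723 common members. Its region, 77 bases downstream of the start, held 1403 and 1063 normalized counts in deeper A and B and 278 and 104 in shallower A and B. The log2 difference was 2.83 (SE 0.28). The shallower libraries differed from each other by more than the deeper ones did, and the pairs did not overlap. The other 4 common snoRNA regions were not called: SNORD3K and SNORA71B had log2 differences of 0.23 and 0.40, and SNORD70 and SNORD114-27 of -0.23 and -0.56.

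The 12 small structural RNA regions of the common set had a median difference of -0.03, with 4 called higher (33.3%) and none lower. The shares were 10.7% and 15.0% over all common regions, and 20.2% and 11.5% over common protein-coding promoters. RMRP, the RNA of RNase MRP, had 366 and 380 against 266 and 280 normalized counts, a log2 difference of 0.45 (SE 0.16). RPPH1, the RNA of RNase P, had 342 and 355 against 243 and 205, a log2 difference of 0.64 (SE 0.17). Both regions are annotated to a coding neighbour as well, CCDC107 and PARP2. RNU12, the U12 RNA of the minor spliceosome, had 385 and 345 against 280 and 207, while RNU6ATAC, of the same spliceosome, had 274 and 243 against 288 and 271, with overlapping pairs. These are the deeper values first, and RNU12 was called and RNU6ATAC was not.

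RNU6-2, a U6 gene with many near-identical copies, was named at 4 common regions. The region on chromosome 15 held 932 and 892 normalized counts in the deeper and 399 and 473 in the shallower pair (log2 difference 1.07, SE 0.16). The other 3, on chromosomes 14 and 19, differed by between -0.41 and -0.15 and were not called. The copies carry the name of a single gene, so the reads at each are uncertain. Of the 4 calls among structural RNAs, 1 stayed without deeper A and 1 without deeper B. With equal totals 1 was called higher and 4 lower. The vault RNA regions differed by between -0.29 and 0.24. TERC, the RNA template of telomerase, lay in the control-specific set with 49.7 and 67.0 against 48.3 and 25.8 and was not called, except as higher without shallower A.

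**Figure D3:**
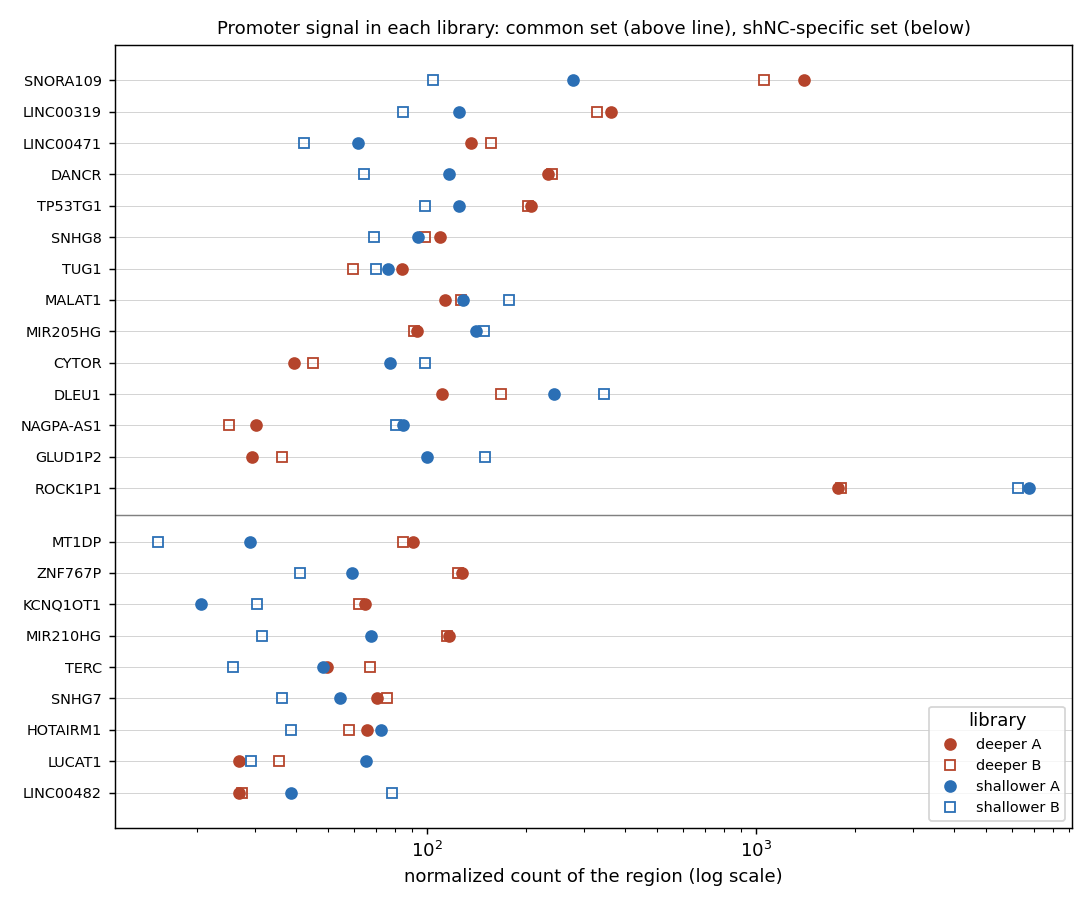
Normalized count (log scale) of named noncoding promoters in each of the 4 libraries, deeper pair in red and shallower pair in blue, circles for A and open squares for B. Common regions stand above the line, running from SNORA109 with the deeper pair on the right to ROCK1P1 with it on the left, and control-specific regions stand below it.

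Among lncRNAs known by name, the common set held regions on both sides. TP53TG1, a p53-responsive lncRNA, had 208 and 203 normalized counts in the deeper and 126 and 98.4 in the shallower pair, a log2 difference of 0.88 (SE 0.19). CYTOR, an lncRNA linked to cytoskeletal regulation, had 39.6 and 45.2 against 77.3 and 98.4, a log2 difference of -1.03 (SE 0.26). Its window shares 241 of 300 bases as an unbroken run with that of MIR4435-2HG, a duplicated gene whose region lay at -0.42 and was not called, so the reads of the pair are uncertain. The DLEU1 region, which overlaps the start of its neighbour DLEU2 in the chromosome 13 segment lost in chronic lymphocytic leukaemia, had 111 and 169 against 244 and 346, a log2 difference of -1.08 (SE 0.21). Without deeper A none of TP53TG1, CYTOR and DLEU1 was called, and each was called with any other library left out.

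Several well-known lncRNA promoters were not called. TUG1, whose region is annotated to the start of MORC2, had 84.2 and 59.7 against 76.1 and 70.3, and its pairs overlapped. JPX, an X-inactivation regulator, had 55.5 and 62.1 against 66.4 and 60.9, also overlapping. MALAT1, an abundant nuclear-speckle RNA, had 114 and 127 against 129 and 178 and a log2 difference of -0.34 (SE 0.21). Its pairs did not overlap, and it was called lower with equal totals and without shallower A. OIP5-AS1 and EPB41L4A-AS1 lay at 0.36 and 0.41, and neither was called in any alternative. A region that was not called is not thereby shown to be equally open in both pairs.

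Among control-specific members, KCNQ1OT1, the antisense RNA of the imprinted KCNQ1 domain, had 64.8 and 62.1 against 20.5 and 30.5 normalized counts, a log2 difference of 1.31 (SE 0.32). It was called with either shallower library left out and not called with either deeper one left out. HOTAIRM1, an antisense RNA of the HOXA cluster, had 65.6 and 58.1 against 72.5 and 38.7. LUCAT1, a stress-responsive lncRNA, had 26.9 and 35.5 against 65.2 and 29.3. The pairs overlapped at both of them.

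In the common set, LINC00319 had the most positive and NAGPA-AS1 the most negative difference of the long intergenic and antisense families. LINC00319, at -196 bases from its start on chromosome 21, held 364 and 329 normalized counts in the deeper and 126 and 84.4 in the shallower pair (log2 difference 1.74, SE 0.20). LINC00471 held 136 and 157 against 61.6 and 42.2 (SE of the log2 difference 0.24). NAGPA-AS1 held 30.3 and 25.0 against 84.6 and 80.8 (-1.55, SE 0.28). The pairs stood apart at all 3, and each was called with any single library left out and with equal totals.

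As families, 126 common LINC regions had a median difference of -0.10 with 17 called higher and 12 lower, and 159 antisense regions had -0.09 with 19 higher and 29 lower. The shares, 13.5% and 9.52% for LINC and 11.95% and 18.2% for antisense regions, lay near the 10.7% and 15.0% of all common regions. The median of all common regions was -0.12. Over common protein-coding promoters the shares were 20.2% and 11.5%. With equal totals the counts were 10 and 40 for LINC and 7 and 57 for antisense genes, beside 1359 and 12414 of all 33913 common regions. Without deeper A they were 6 and 3 for LINC and 10 and 7 for antisense genes, and without deeper B 9 and 4, and 8 and 13. Which direction had more antisense calls thus turned over without deeper A, and the antisense counts were 32 and 33 without shallower A. Of the 159 antisense regions, 64 were annotated to a coding mRNA's start. For 46 of the 159 the sense gene of the name also had a promoter region of its own. The median difference was 0.10 over those sense regions and -0.10 over their antisense regions. The sense regions were taken from any set, and those of the control-specific and knockdown-specific sets were chosen by this contrast. The medians therefore do not compare like with like, and no difference in direction is read from them. Of control-specific regions, 8 of 61 LINC (13.1%) and 11 of 66 antisense regions (16.7%) were called higher, near the 13.2% of all control-specific regions and under the 31.1% of the set's protein-coding promoters. Without deeper A these were 3 and 2, without deeper B 2 and 2, and without shallower A 14 and 22.

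The 5 control-specific members called lower in the deeper pair included LINC00482 (26.9 and 27.4 against 38.7 and 78.5), LINC01269 (21.9 and 24.2 against 49.5 and 41.0) and GAS5-AS1 (40.4 and 33.1 against 65.2 and 65.6). The pairs did not overlap at these 3, although the set is named for the group whose label the deeper pair carries there. None of them was called when either deeper library was left out.

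Promoter regions of miRNA genes were called in both directions. Of 56 common regions 19 were called higher and 5 lower, with a median difference of 0.24. These are 33.9% and 8.93%, beside 10.7% and 15.0% of all common regions and 20.2% and 11.5% of common protein-coding promoters. Of 58 control-specific regions 13 were called higher (22.4%) and 1 lower, between the 13.2% of all regions and the 31.1% of protein-coding promoters of that set. In the common set the counts were 10 and 2 without deeper A, 8 and 4 without deeper B, and 7 and 18 with equal totals, a turn in direction. In the control-specific set they were 4 and 0 without deeper A, 5 and 1 without deeper B, and 6 and 5 with equal totals. With equal totals all 33913 common regions had 1359 called higher and 12414 lower, so the move toward lower calls was not particular to miRNA genes. Most miRNAs are cut from longer transcripts, and 90 of the 114 regions lay upstream of the hairpin, so the start here is that of the annotated precursor.

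The MIR3180 copies on chromosome 16, whose shared mature sequence is printed above, had 5 common regions. Those at 30, 47 and 56 bases from a start all carried the name MIR3180-2. The log2 differences of the 5 lay between 0.33 and 1.08, and 4 of the 5 were called higher. Over all common regions 10.7% were called higher, and over common protein-coding promoters 20.2%. With equal totals the MIR3180 differences lay between -0.02 and 0.73 and 2 of the 5 were called. Without deeper B 2 were called, and without deeper A 3. The region with the largest difference held 151 and 169 normalized counts in the deeper and 101 and 55.1 in the shallower pair. The MIR6511 copies, also on chromosome 16, had 5 regions, all in the control-specific set, which was chosen by this contrast. Over all regions of that set 13.2% were called higher, and over its protein-coding promoters 31.1%. At the 5 MIR6511 regions the log2 differences lay between 0.68 and 1.11. The deeper pair was above the shallower at each, a direction that the choice of the set favours. Of these 3 were called higher, against 0 with equal totals, 0 without deeper A, 1 without deeper B and 2 without shallower B. Both groups consist of near-identical copies on a single chromosome, so their regions are not independent observations and their reads may be shared.

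MIR663A, in a copy-rich stretch of chromosome 20, held 1399 and 1290 normalized counts in the deeper and 1136 and 706 in the shallower pair (log2 difference 0.58, SE 0.19). Its host gene MIR663AHG held 2250 and 2140 against 2751 and 2030, with overlapping pairs. MIR1908, whose seed MIR663A shares and whose region overlaps the start of the fatty acid desaturase FADS2, held 90.1 and 85.5 against 83.4 and 80.8. The log2 differences of this pair with a shared seed were 0.58 and 0.10. MIR663A was called with shallower A left out and not with any other single library left out.

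Other miRNA regions spanned both directions. The name MIR4435-1 was carried by a region in each set, at -33 bases from a start in the common and -29 in the control-specific set. They held 130 and 110 against 55.6 and 37.5, and 81.6 and 92.0 against 44.7 and 29.3, log2 differences of 1.37 and 1.24. Whether both lie at 1 locus or at duplicated copies was not tested, so their reads are uncertain. MIR611, which overlaps the start of the flap endonuclease gene FEN1, held 41.2 and 55.7 against 108 and 109 (log2 difference -1.16, SE 0.25). MIR203A, a miRNA of epidermal differentiation, had a control-specific region with a log2 difference of 1.09 (SE 0.43), the deeper pair above the shallower. It was not called, except as higher without shallower A and with letters A and B as a replicate block. MIR4531 had the largest control-specific miRNA difference (33.7 and 41.2 against 16.9 and 3.51), but its lowest value equals 3 reads.

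Host genes of miRNAs had 1 of 14 common regions called higher and 4 lower, with a median difference of -0.34 (-0.69 with equal totals). These are 7.14% and 28.6% of only 14 regions, beside 10.7% and 15.0% of all common regions. Over common protein-coding promoters the shares were 20.2% and 11.5%. With equal totals the median of all regions also moved, by -0.35. MIR205HG, host of the basal epithelial miRNA miR-205, held 93.4 and 91.2 normalized counts in the deeper and 141 and 149 in the shallower pair, a log2 difference of -0.65 (SE 0.20). MIR646HG (50.5 and 61.3 against 121 and 132), MIR2117HG (48.0 and 58.1 against 108 and 123) and MIR193BHG (52.2 and 62.1 against 114 and 96.1) were the others called lower. MIR200CHG, host of the epithelial miR-200c, held 180 and 127 against 95.4 and 87.9 at the region -131 bases from the start and was the region called higher. Its other region, at -828 bases, held 80.8 and 84.7 against 126 and 83.2, so 2 regions of a single gene differed in sign. The 4 lower calls were 2 without deeper A, 3 without deeper B, 6 without shallower B and 8 with equal totals. In the control-specific set MIR210HG, host of the hypoxia-induced miR-210, held 117 and 115 against 67.7 and 31.6, a log2 difference of 1.31 (SE 0.29), in a set chosen by the same contrast.

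**Figure D4:**
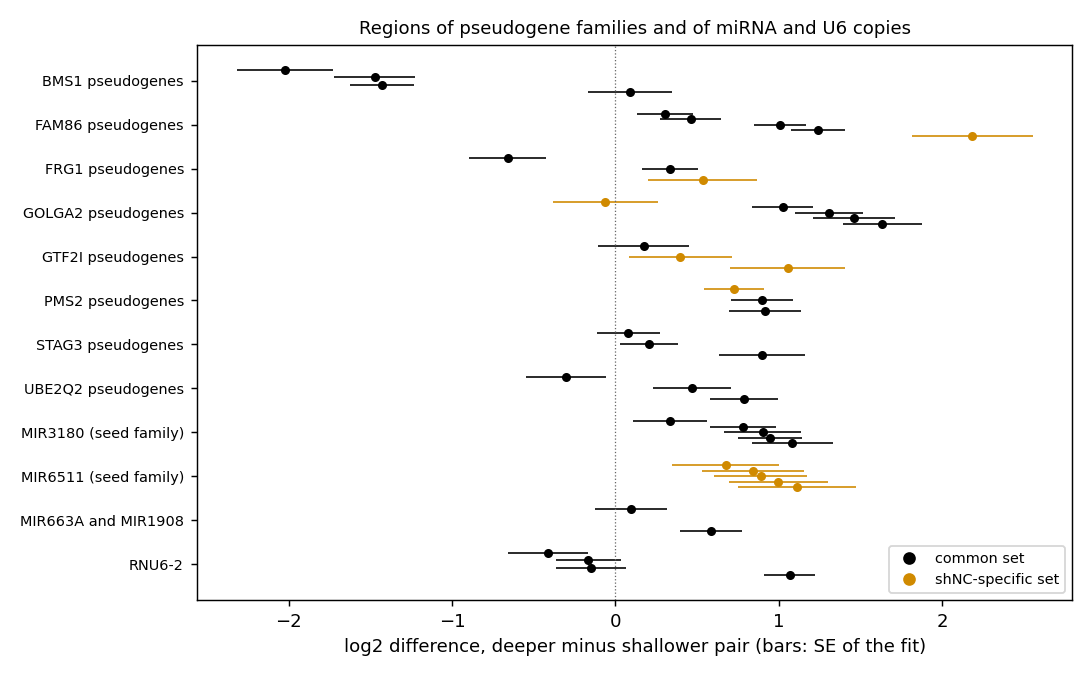
Log2 difference with the SE of the fit for each region of the pseudogene families named after the same parent gene and of the miRNA and U6 copies. Black points are common and orange points control-specific regions; 3 of 4 BMS1 pseudogene regions lie below -1 and 4 of 5 GOLGA2 pseudogene regions above 1.

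Pseudogenes were grouped by parent gene where 3 or more regions carried its name, a grouping made after the names and values were seen. Of all common regions 10.7% were called higher and 15.0% lower, and of common protein-coding promoters 20.2% and 11.5%. In the control-specific set 13.2% of all regions and 31.1% of protein-coding promoters were called higher. Because the families were picked after seeing values, their counts are a description and are not tested against these shares. GOLGA2 pseudogenes, chromosome 15 copies of a Golgi matrix protein gene, had 4 of 5 regions called higher, also with equal totals and with any single library left out. The name GOLGA2P10 was carried by 3 regions, at -55, -26 and -17 bases from a start. Whether they are separate copies under that name was not tested. Their log2 differences lay between 1.31 and 1.64, and the region with the largest held 183 and 200 normalized counts against 80.9 and 45.7. The region of GOLGA2 itself, in the control-specific set, held 106 and 121 against 64.0 and 59.8. PMS2 pseudogenes, copies of a mismatch repair gene, were called higher at all 3 regions, with log2 differences of 0.73 to 0.91 (0.38 to 0.56 with equal totals). Of these calls 1 stood with equal totals, 1 without deeper A and 0 without deeper B. GOLGA2, PMS2 and FAM86 pseudogenes each include 1 control-specific region, chosen by the same contrast.

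FAM86 pseudogenes had positive differences at each of 5 regions (0.30 to 2.19), and 3 were called higher. This stands beside 10.7% of all common and 13.2% of all control-specific regions. With equal totals 1 of the 5 turned negative, at -0.05, and 3 were called. Without shallower A all 5 were called. FAM86B3P, in the control-specific set, held 64.0 and 62.1 against 9.66 and 17.6, and FAM86EP, in the common set, held 495 and 531 against 248 and 261. BMS1 pseudogenes, copies of a ribosome biogenesis GTPase gene, were called lower at 3 of 4 regions, beside 15.0% of all common regions. These calls stood with equal totals, where all 4 were negative. The name BMS1P2 was carried by regions at -25 and -5 bases from a start, and whether they are separate copies was not tested. That at -25 held 31.1 and 24.2 against 87.0 and 151 (log2 difference -2.02, SE 0.30). That at -5 held 39.6 and 47.6 against 106 and 141, and BMS1P4 held 104 and 106 against 237 and 339. The fourth, BMS1P20 on chromosome 22, held 67.3 and 104 against 94.2 and 65.6, and its pairs overlapped.

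The other parents had 3 regions each. Their calls stand beside 10.7% higher and 15.0% lower of all common regions, and 13.2% higher of all control-specific regions. STAG3, GTF2I and UBE2Q2 pseudogenes each had 1 of 3 regions called higher and none with equal totals. Differences ran from 0.08 to 0.90, from 0.17 to 1.06 and from -0.30 to 0.79, and with equal totals each group had both signs. Without deeper B none of these 3 calls stood, and without deeper A that of STAG3 did. Without shallower B, STAG3 and GTF2I pseudogenes had no call and UBE2Q2 pseudogenes had 2. FRG1 pseudogenes had 1 of 3 regions called lower, with differences from -0.66 to 0.54, no call with either deeper library left out and 2 called higher without shallower A.

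GLUD1P2, a glutamate dehydrogenase pseudogene also on chromosome 10, held 29.5 and 36.3 against 100 and 150 (log2 difference -1.88, SE 0.27). BMS1P4's region is annotated to GLUD1P3 as well, so the lower regions on chromosome 10 include copies of both parents. ROCK1P1, a copy of the protein kinase gene ROCK1 on chromosome 18, had the highest signal of the common members and among the largest negative differences. It held 1785 and 1821 normalized counts in the deeper and 6776 and 6258 in the shallower pair (log2 difference -1.85, SE 0.18). The region of ROCK1 held 159 and 168 against 201 and 251 and was not called. The calls at BMS1P2, BMS1P4, GLUD1P2, ROCK1P1, GOLGA2P10 and FAM86EP stood with any single library left out and with equal totals. Reads of these copies may belong to their parents or to each other.

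Control-specific pseudogenes with large differences were MT1DP, a metallothionein pseudogene (90.9 and 84.7 against 29.0 and 15.2, log2 difference 2.01, SE 0.33), and ZNF767P, a zinc finger pseudogene (128 and 124 against 59.2 and 41.0, log2 difference 1.34, SE 0.24). Both belong to the set chosen by this contrast. The unnamed locus LOC101928626 on chromosome 1 had a signal far above every other member, with 232530 and 201050 against 96306 and 68634 normalized counts. Whether those reads came from this locus or from copies of its sequence elsewhere was not tested. The signal is therefore not shown to mark an open promoter at LOC101928626. Its log2 difference of 1.41 had an SE of 0.61 and was not called, and it was called higher with either shallower library left out.

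Base composition moved with the difference at lncRNA promoters. Of 521 common members that RefSeq lists as lncRNA, 435 (83.5%) had a promoter window, with a median GC content of 63.3%. The median log2 difference was -0.29 for the 76 members with under 50% GC, -0.08 for the 99 with 50 to 60%, 0.05 for the 142 with 60 to 70% and 0.07 for the 118 with 70% or more. In the lowest group 3 were called higher (3.95%) and 15 lower (19.7%), and in the highest 22 higher (18.6%) and 6 lower (5.08%). For common protein-coding promoters the shares were 10.2% and 24.6% in the lowest group, and 27.1% and 8.01% in the highest. Over all common regions they were 10.7% and 15.0%. The shift of calls with GC was thus not particular to lncRNA promoters. Across the 435 members Spearman's rho between GC and the difference was 0.23, a description over regions that share the same libraries. It was 0.15 without shallower B and 0.28 without shallower A. Over common protein-coding promoters it was 0.24.

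The level within each library followed GC unequally. Spearman's rho between GC and the level was 0.216 in deeper A, 0.225 in deeper B, 0.143 in shallower A and 0.032 in shallower B. The part of library GC bias in the differences was not tested. NAGPA-AS1, at 77.0% GC with the most negative difference of the windows plotted, went against the trend, and CYTOR and MIR205HG lay along it. For miRNA genes, pseudogenes and control-specific lncRNAs, windows covered too few members (50.6% of all control-specific members and 60.9% of all common ones), so no composition check was made there.

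**Figure D5:**
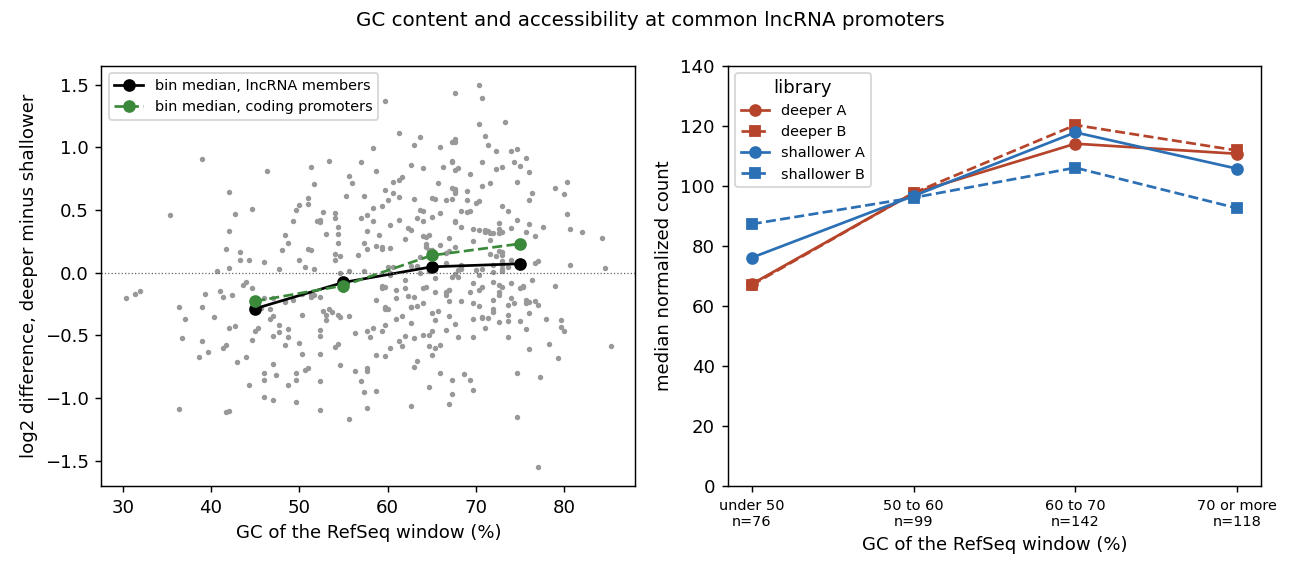
Left, log2 difference against the GC content (%) of the RefSeq window for common lncRNA promoters, with bin medians for them and for common coding promoters drawn at mid-bin. Right, median normalized count by GC bin in each library; the deeper libraries lie lowest in the bin under 50% GC and shallower B lies lowest from 60% upward.

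Sequence matches were counted in the 430 windows of these common lncRNA genes and in all 27305 first-listed RefSeq windows, on both strands except for TATA. The AP-1 letters TGANTCA stood in 12.6% of the lncRNA windows and 7.76% of all windows, and the CRE letters TGACGTCA in 4.65% and 1.98%. The GC box GGGCGG stood in 57.7% and 44.6%, the NF-Y letters CCAAT in 39.3% and 35.7%, and the NRF1 letters GCGCATGC in 7.21% and 3.27%. The ETS letters CCGGAAGT stood in 4.42% and 4.44%, and TATAAA on the gene's strand in 4.19% and 7.71%. Over all RefSeq lncRNA windows the shares were 10.5% for AP-1, 1.13% for CRE, 25.4% for the GC box, 34.8% for NF-Y, 1.91% for NRF1, 2.01% for ETS and 8.80% for TATAAA. The median log2 difference was 0.06 with and -0.17 without a GC box, and 0.17 with and -0.12 without a CCAAT box. It was -0.17 in the 54 windows with an AP-1 match, -0.24 in the 31 with an NRF1 match, -0.24 in the 18 with TATAAA and -0.20 in the 19 with an ETS match, against 0.00056 to 0.0072 without each. It was -0.0063 in the 20 windows with a CRE match and -0.0059 without. A match describes letters in these windows and not a bound site, and GC boxes and GC content overlap by construction.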

How the data were processed

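The authors' deposited table, used as given, holds a log10 normalized value per region and library, a log2 fold change and a p-value, per the file headers. Base calls came from CASAVA 1.4 and the build was hg19, per the submitters' processing notes; the aligner, peak caller, annotator and differential method were not given in the sources used here. Region starts and ends were not used here. Values were raised from log10, libraries were identified by the worth of 1 read, and a trended limma model (limma 3.58.1 under R 4.3.3) was fitted to log2(normalized count + 1) over all 58127 regions, with adjusted p under 0.05 as a call. The filter, at least 10 normalized counts in 2 or more libraries, removed 0 regions. The test was checked on simulated data. The authors' deposited p-value was under 0.05 at 221 common and 80 control-specific members, of which 218 and 74 were also called here.

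Members, lists and tests were chosen with earlier results of these data known. Named genes are, per set, the 3 highest signals of each gene type, the 6 largest non-overlapping differences each way with a mean of at least 30, and short lists (snoRNA hosts, structural RNAs, miRNAs and their hosts, known lncRNAs), of which a subset is printed. Parent-gene groups, GC bins, the limit to RefSeq lncRNAs and genes shown as parents were chosen after seeing values. RefSeq (GRCh38.p14) gave names, windows and miRNA sequences; where a gene had several windows the first listed was used.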

Additional observations from a re-analysis of the deposited data

How the results depend on the processing

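Pseudocount 5, a mean of at least 30 normalized counts, no filter and 1 region per gene symbol kept the counts of called members within 1.5 times and the medians within the spread between letters. With equal library totals the common counts were 51 higher and 237 lower with a median log2 difference of -0.34, and the control-specific counts 33 and 25 with a median of 0.028. Letters A and B did not pair the libraries: the correlation of the A minus B differences of the pairs over 58127 regions was -0.004. With the letters as a replicate block, 134 common members were higher and 101 lower, and 89 control-specific members were higher and 8 lower, the last above 1.5 times the 5 without the block; MIR203A and LOC101928626 were called higher only with it or without a shallower library. Within 100 bases of the TSS fewer members were counted, with 71 higher and 31 lower of 362 common and 37 and 2 of 180 control-specific. Leaving out 1 library at a time gave 52 to 184 common members higher and 34 to 126 lower, medians of -0.05 to 0.06, 19 to 117 control-specific members higher and 0 to 14 lower, and medians of 0.26 to 0.49; with a single library left in a pair, that library is assumed to vary like the others. The correlation of GC with the difference, whose alternatives were chosen after seeing the data, ranged from 0.15 to 0.28. The depth limits members with few reads: 2 members had 3 reads or fewer in a library.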
